A study of Mus musculus with 8 samples.

Results

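Integrins and laminins were followed through adipocyte differentiation in 2 mouse cell lines. The genes were every integrin alpha chain (Itga), integrin beta chain (Itgb) and laminin chain (Lama, Lamb, Lamc) named in the deposited count tables. They were taken by symbol alone, with no measured value in the rule, although earlier results of these data were known. There were 37 of them, of which 36 are described here, 18 integrin alpha, 8 integrin beta and 10 laminin chains, among 35976 rows for BAC cells and 21828 rows for 3T3-L1 cells. BAC cells are brown preadipocytes taken from the interscapular brown fat of newborn mice and immortalised with the SV40 large T antigen. 3T3-L1 is an embryonic fibroblast line that turns into fat cells. Both lines were labelled wild type (WT), and no strain is given in the labels. All 4 groups carried the label of adipogenic differentiation. Day 0 was reached after confluence and before induction. The cells then received IBMX, indomethacin, dexamethasone, insulin and T3 (triiodothyronine), followed by insulin and T3 alone, and were collected again at day 4 (BAC) or day 6 (3T3-L1). Each group held 2 libraries of poly(A)-selected RNA. Each line stands for a single immortalised line, and since the labels do not state separate cultures for the libraries of a group, each p-value measures only how far these libraries spread, which may be technical.

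Integrins are pairs of 1 alpha and 1 beta chain that span the cell membrane, hold the cell to the matrix outside and connect through talin and kindlin to actin inside. The alpha chain largely sets the ligand. Some alpha chains bind laminins, some bind collagens, and others bind proteins such as fibronectin and vitronectin that carry the tripeptide motif RGD. A laminin is a trimer of 1 alpha, 1 beta and 1 gamma chain that polymerises into the basement membrane, the thin sheet that wraps each mature adipocyte.

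Libraries held between 9045849 and 10160636 counts. Adipocyte and preadipocyte markers fitted the labels, since all 6 tested adipocyte markers rose in BAC and all 7 in 3T3-L1, and all 5 preadipocyte markers fell in each line. All 5 brown adipocyte markers rose in BAC, and the 3 tested in 3T3-L1 rose too. Among them Ucp1 had 427 and 173 counts at day 4 in BAC and at most 2 counts in a 3T3-L1 library. The counts of integrins and laminins made up 0.294% and 0.31% of the BAC libraries at day 0 and 0.161% and 0.169% at day 4. In 3T3-L1 they made up 0.426% and 0.432% at day 0 and 0.34% and 0.343% at day 6. These are bulk samples, so fewer cells of a type and less RNA per cell cannot be told apart. Levels are given as counts or as CPM, counts scaled to a common library size after TMM correction for differences in RNA composition. Changes are log2 changes ± SE, late day against day 0, with adjusted p from the quasi-likelihood test of edgeR over all genes tested in that line (n = 2 libraries per group). A change was counted as a rise or a fall when its adjusted p was under 0.05.

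In both lines, the laminin-binding integrin chains Itga6 and Itga7 rose, the alpha chains of the fibronectin and vitronectin receptors fell, and the epidermal laminin chain Lamb3 rose. Of the 36 genes, 25 were abundant enough to test in each line. In BAC, 8 rose and 15 fell, that is 32% and 60% of those tested, where 39.1% of all 14028 genes tested rose and 39.4% fell. In 3T3-L1, 7 rose and 11 fell, that is 28% and 44%, where 39.8% of all 11902 genes tested rose and 39.6% fell. The median log2 change was -1.14 over the 25 genes in BAC and -0.32 in 3T3-L1, against 0.008 and 0.001 over all genes. Most genes moved in each line. The shares of these chains that rose lay below, and those that fell above, the shares over all genes, furthest for the falls in BAC. In 3T3-L1 the 44% that fell lay near the 39.6% of all genes. There were 4 genes that rose in both lines (Itga6, Itga7, Itgae and Lamb3) and 9 that fell in both (Itga2b, Itga5, Itga8, Itgav, Itgb1, Itgb2, Itgb3, Itgb5 and Lamb2). Itga3 rose in BAC and fell in 3T3-L1, and Itgad, Lamb1 and Lamc1 did the opposite. The rises of Lamb1 and Lamc1 in 3T3-L1 depended on the scaling.

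**Figure D1:**
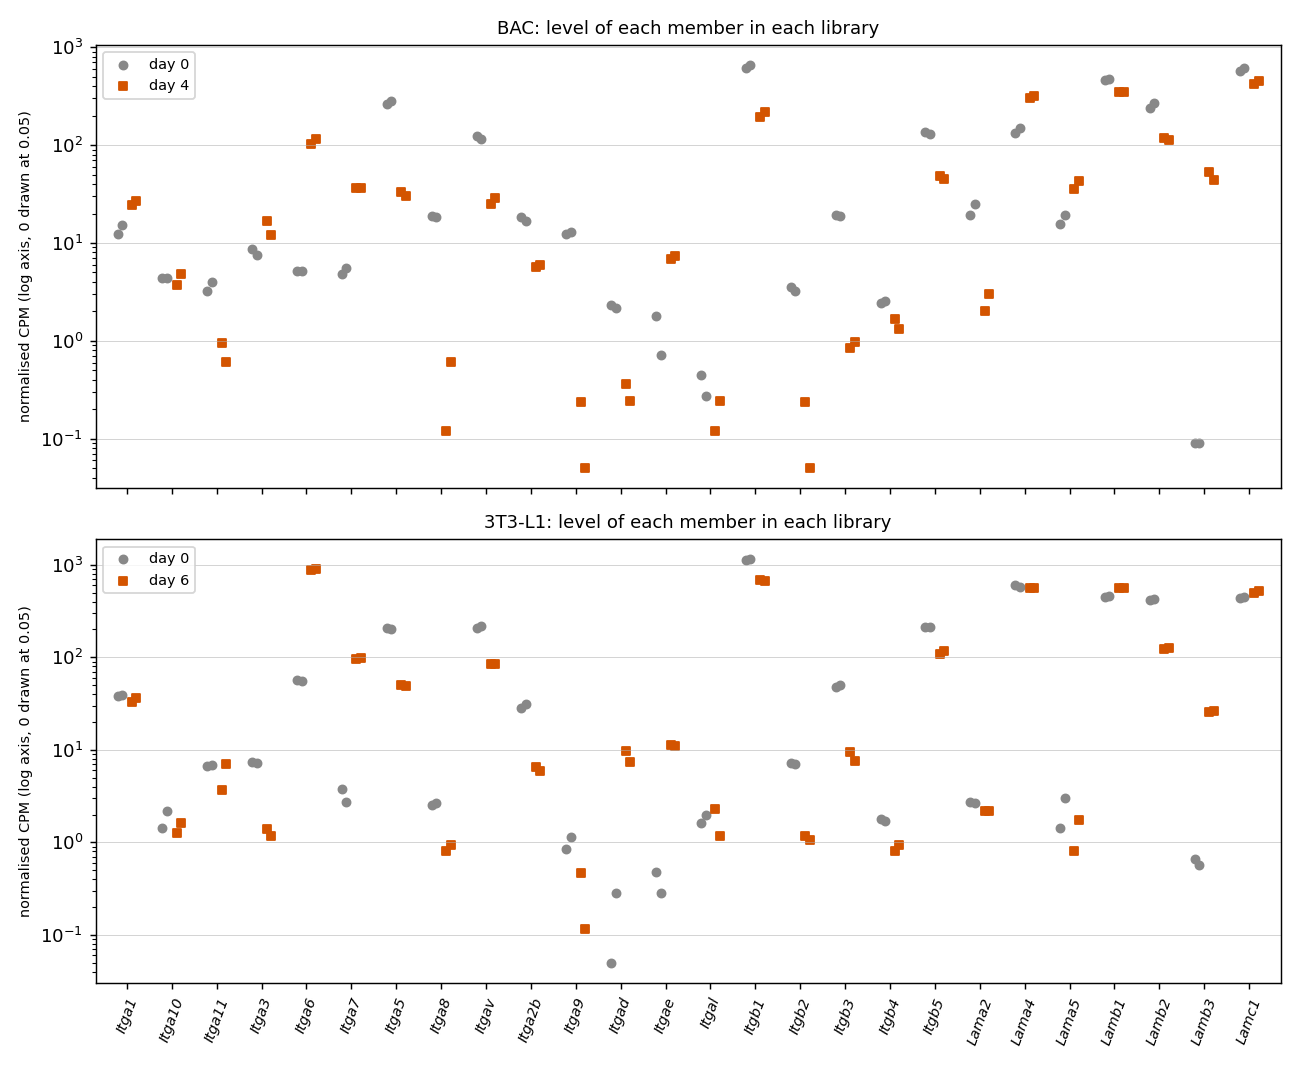
Level of each integrin and laminin chain tested in at least 1 line, as normalised CPM on a log axis, with 1 point per library (grey circles, day 0, and orange squares, day 4 in BAC above and day 6 in 3T3-L1 below). Itga6 goes from 5.14 and 5.16 CPM to 103 and 116 CPM in BAC and from 57.0 and 55.9 CPM to 881 and 899 CPM in 3T3-L1, while Itga5 and Itgav move down in both.

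The sequence just before the start site is shown for the chain with the largest rise in BAC and for the 5 chains with the highest CPM at day 0 among those that fell in both lines, so that they can be read side by side. The 250 bases upstream of each start were taken from RefSeq on build GRCm38.p6 and are printed in the direction of the gene. Both strands were searched for GGGCGG, the box of the Sp factors, GGAATG, the core of the TEAD factors, and TGANTCA, the AP-1 site. Matches of any of these, or of their reverse complements, are in capitals. Lamb3 is listed with more than 1 start, and the window shown is the one that lies further downstream, while the other holds none of these letters.
Lamb3, chr1:193301993-193302242, plus strand: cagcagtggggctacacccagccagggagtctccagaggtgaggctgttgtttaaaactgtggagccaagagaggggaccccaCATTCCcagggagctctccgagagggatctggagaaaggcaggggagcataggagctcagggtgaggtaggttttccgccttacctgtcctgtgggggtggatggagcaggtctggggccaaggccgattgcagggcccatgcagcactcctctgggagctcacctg
Itga5, chr15:103366792-103367041, minus strand: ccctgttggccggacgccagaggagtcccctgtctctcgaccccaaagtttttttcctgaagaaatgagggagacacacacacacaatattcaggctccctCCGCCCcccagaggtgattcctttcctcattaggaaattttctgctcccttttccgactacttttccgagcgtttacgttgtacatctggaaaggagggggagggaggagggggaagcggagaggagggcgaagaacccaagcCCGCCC
Itgb5, chr16:33829415-33829664, plus strand: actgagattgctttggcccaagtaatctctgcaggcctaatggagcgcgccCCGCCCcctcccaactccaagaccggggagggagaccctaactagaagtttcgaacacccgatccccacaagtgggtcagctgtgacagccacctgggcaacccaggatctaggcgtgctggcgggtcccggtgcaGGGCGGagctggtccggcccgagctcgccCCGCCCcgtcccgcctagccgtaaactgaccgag
Itgb1, chr8:128685404-128685653, plus strand: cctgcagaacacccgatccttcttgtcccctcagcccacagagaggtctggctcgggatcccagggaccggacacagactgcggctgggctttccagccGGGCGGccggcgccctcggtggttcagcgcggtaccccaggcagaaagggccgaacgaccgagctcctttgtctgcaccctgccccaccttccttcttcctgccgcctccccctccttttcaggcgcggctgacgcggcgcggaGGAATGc
Lamb2, chr9:108479612-108479861, plus strand: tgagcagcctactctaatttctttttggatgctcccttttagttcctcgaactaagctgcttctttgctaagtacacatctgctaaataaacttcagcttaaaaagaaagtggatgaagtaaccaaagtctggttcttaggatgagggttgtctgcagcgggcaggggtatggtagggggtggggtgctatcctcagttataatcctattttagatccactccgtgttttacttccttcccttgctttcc
Itgav, chr2:83724147-83724396, plus strand: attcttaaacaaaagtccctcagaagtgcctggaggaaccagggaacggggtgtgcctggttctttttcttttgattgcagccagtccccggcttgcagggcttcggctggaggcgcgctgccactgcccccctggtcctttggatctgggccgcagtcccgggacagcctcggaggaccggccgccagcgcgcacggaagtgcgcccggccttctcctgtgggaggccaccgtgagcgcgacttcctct
The Lamb3 window had a TEAD match and no Sp match, that of Itga5 had 2 Sp matches, that of Itgb5 had 3, and that of Itgb1 had 1 Sp and 1 TEAD match, while those of Lamb2 and Itgav had none. Over 32851 upstream windows of the same length, 32.7% held the Sp letters, 12.6% the TEAD letters and 6.75% the AP-1 letters. Upstream windows were found for 23 of the 36 genes (26 windows), of which 9 held the Sp letters, 3 the TEAD letters and 1 the AP-1 letters. A match describes the letters only and is no evidence of a bound site.

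Among the laminin-binding alpha chains, Itga6 and Itga7 rose in both lines. Itga6 (chromosome 2, 71745616 to 71858416, GRCm38) encodes the laminin receptor chain of epithelia and of many stem cells. It had 57 and 57 counts at day 0 against 862 and 963 counts at day 4 in BAC, or 5.14 and 5.16 CPM against 103 and 116 CPM. In 3T3-L1 its counts were 602 and 589 at day 0 and 7605 and 7724 at day 6, or 57.0 and 55.9 CPM against 881 and 899 CPM. The days did not overlap in either line, and the replicates lay close to each other. Its log2 change was 4.41 ± 0.12 in BAC (adjusted p = 1.44e-13) and 3.98 ± 0.06 in 3T3-L1 (adjusted p = 8.41e-22).

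Itga7 (chromosome 10, 128933818 to 128958282), the laminin receptor chain best known from muscle fibres, had 4.87 and 5.52 CPM at day 0 against 36.6 and 36.1 CPM at day 4 in BAC. The 3T3-L1 libraries had 3.79 and 2.75 CPM at day 0 against 96.6 and 97.9 CPM at day 6. Day 0 was thus low in both lines, and the late libraries stood well above it. The log2 change was 2.81 ± 0.14 in BAC (adjusted p = 8.12e-11) and 4.89 ± 0.11 in 3T3-L1 (adjusted p = 7.04e-19). Of the 4 skeletal muscle markers examined, desmin (Des) rose as well, by 3.81 ± 0.16 in BAC and 4.74 ± 0.17 in 3T3-L1, with the summed level of the list going from 2.62 to 4.15 CPM up to 47.0 CPM in BAC and from 1.23 to 1.71 CPM up to 39.6 to 39.7 CPM in 3T3-L1. Myod1, the gene that defines the muscle lineage, was at 0 counts in all 8 libraries, and Ckm, muscle creatine kinase, had at most 1 count in any.

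Itga3, whose chain binds the laminins of epithelia and kidney, went in opposite directions. It had 8.74 and 7.51 CPM at day 0 against 16.7 and 12.1 CPM at day 4 in BAC, but 7.38 and 7.21 CPM at day 0 against 1.39 and 1.16 CPM at day 6 in 3T3-L1. The late libraries thus lay above day 0 in BAC and below it in 3T3-L1, with no overlap in either. The log2 change was 0.83 ± 0.18 in BAC (adjusted p = 8.52e-04) and -2.50 ± 0.26 in 3T3-L1 (adjusted p = 3.48e-08).

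All 4 alpha chains of the RGD-binding integrins fell in both lines, where 39.4% of all genes tested fell in BAC and 39.6% in 3T3-L1. Itga5 (chromosome 15, 103344286 to 103366763) encodes the main fibronectin receptor chain. It had 263 and 284 CPM at day 0 against 33.2 and 29.9 CPM at day 4 in BAC, and 206 and 204 CPM at day 0 against 50.3 and 48.8 CPM at day 6 in 3T3-L1. Itgav (chromosome 2, 83724397 to 83806916), the alpha chain of the vitronectin receptors, had 123 and 116 CPM at day 0 against 25.2 and 28.7 CPM at day 4 in BAC, and 208 and 216 CPM at day 0 against 84.1 and 84.4 CPM at day 6 in 3T3-L1. For both genes every late library was below every day 0 library. The log2 change of Itga5 was -3.11 ± 0.09 in BAC and -2.05 ± 0.06 in 3T3-L1 (adjusted p = 2.57e-13 and 2.94e-17). That of Itgav was -2.15 ± 0.09 and -1.33 ± 0.06 (adjusted p = 2.17e-11 and 1.08e-14).

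Itga8, a receptor chain for nephronectin that is known from kidney mesenchyme, had 209 and 205 counts at day 0 against 1 and 5 counts at day 4 in BAC. In 3T3-L1 it was scarce throughout, with 27 and 28 counts at day 0 against 7 and 8 counts at day 6. The log2 change was -5.65 ± 0.32 in BAC and -1.57 ± 0.36 in 3T3-L1 (adjusted p = 4.82e-10 and 5.75e-04). Without replicate 1 or replicate 2 of BAC at day 4 the BAC value became -4.92 or -7.14, since 5 or 1 counts then stood for day 4. Itga2b, the fibrinogen receptor chain of platelets, had 203 and 185 counts at day 0 against 48 and 49 at day 4 in BAC, and 301 and 327 counts at day 0 against 57 and 51 at day 6 in 3T3-L1. It fell in both lines, by 1.58 ± 0.16 and 2.24 ± 0.13 on the log2 scale, and the days did not overlap. The 4 markers of platelets and megakaryocytes summed to 12.1 to 13.1 CPM at day 0 against 0.363 to 1.67 CPM at day 4 in BAC, and to 7.11 to 9.28 CPM at day 0 against 3.01 to 5.00 CPM at day 6 in 3T3-L1. Gp1bb alone passed the filter, and the defining marker Pf4 had at most 5 counts in any library. The part of such transcripts in the fall of Itga2b was not tested.

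Of the 8 beta chains, 5 were tested in each line, of which 4 fell in BAC and 5 in 3T3-L1. Over all genes tested, 39.4% fell in BAC and 39.6% in 3T3-L1. Itgb1, the beta chain shared by the collagen, fibronectin and laminin receptors (chromosome 8, 128685654 to 128733200), was the most abundant beta chain per length in all 4 groups. It had 614 and 662 CPM at day 0 against 196 and 216 CPM at day 4 in BAC, and 1130 and 1140 CPM at day 0 against 685 and 668 CPM at day 6 in 3T3-L1. Both lines thus fell without overlap between days, by 1.63 ± 0.08 and 0.74 ± 0.05 on the log2 scale (adjusted p = 1.22e-10 and 2.47e-11). Itgb5, a vitronectin receptor chain, had 135 and 131 CPM at day 0 against 48.4 and 45.3 CPM at day 4 in BAC, and 212 and 211 CPM at day 0 against 109 and 116 CPM at day 6 in 3T3-L1. Its log2 change was -1.50 ± 0.08 in BAC and -0.92 ± 0.05 in 3T3-L1 (adjusted p = 3e-10 and 3.92e-12).

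Itgb3, the beta chain of the platelet and the bone-resorbing integrins, had 212 and 210 counts at day 0 against 7 and 8 counts at day 4 in BAC. For 3T3-L1 the values were 501 and 526 counts at day 0 against 81 and 65 at day 6. Day 4 in BAC was close to the detection limit, whereas 3T3-L1 kept a clear signal. The log2 change was -4.38 ± 0.24 and -2.52 ± 0.11 (adjusted p = 2.71e-10 and 4.05e-14). Itgb2, the leukocyte beta chain, had 39 and 36 counts at day 0 against 2 and 0 counts at day 4 in BAC, a ratio of 28.2 between day 0 and day 4 with an exact 95% interval of 7.53 to 237 that covers counting error only (edgeR adjusted p = 3.97e-06). The fitted log2 change of -4.67 ± 0.59 became -8.11 or -3.75 without replicate 1 or replicate 2 of day 4. In 3T3-L1 its counts were 76 and 75 at day 0 and 10 and 9 at day 6, a log2 change of -2.68 ± 0.27. Itgb4, the long beta chain of hemidesmosomes, had 27 and 28 counts at day 0 against 14 and 11 at day 4 in BAC (log2 change -0.72 ± 0.33, adjusted p = 0.0558), and passed with library size alone (-0.98) or upper-quartile factors (-0.76). In 3T3-L1 there were 19 and 18 counts at day 0 against 7 and 8 at day 6 (log2 change -1.0 ± 0.39, adjusted p = 0.0264). The 3T3-L1 call was lost in DESeq2 and whenever any single 3T3-L1 library was left out, with values from -1.10 to -0.90.

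Of the collagen-binding alpha chains, Itga1 rose and Itga11 fell in BAC, and Itga10 passed the test in neither line. Itga1, a collagen receptor chain of smooth muscle and stroma, had 12.5 and 15.3 CPM at day 0 against 24.7 and 26.8 CPM at day 4 in BAC, and 38.0 and 39.1 CPM at day 0 against 33.1 and 36.2 CPM at day 6 in 3T3-L1. It rose in BAC by 0.89 ± 0.13 on the log2 scale (adjusted p = 2.13e-05), and the 3T3-L1 value of -0.15 ± 0.08 did not pass the test (adjusted p = 0.1). The 3T3-L1 value passed as a fall with library size alone (-0.44) or upper-quartile factors (-0.31). Itga11, a fibrillar collagen receptor chain of fibroblasts, had 36 and 44 counts at day 0 against 8 and 5 at day 4 in BAC, a log2 change of -2.19 ± 0.37 (adjusted p = 6.77e-05). The 3T3-L1 values were 70 and 72 counts at day 0 against 32 and 61 at day 6, and the value of -0.32 ± 0.23 did not pass (adjusted p = 0.216). The day 6 libraries differed from each other here. Without replicate 2 of day 6 the value was -0.86 and passed, and without replicate 1 it was 0.0817. It also passed, at -0.61, with library size alone. Itga10, a cartilage chain, read -0.05 ± 0.24 and -0.31 ± 0.37, and 33.5% of its exon bases are shared with a predicted gene, Gm42957. Itga2 had at most 4 counts in any library.

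Itga9, a receptor chain for tenascin and other matrix proteins, nearly vanished from BAC. It had 136 and 142 counts at day 0 against 2 and 0 counts at day 4, a ratio of 104 with an exact 95% interval of 28.6 to 866 (counting error only, edgeR adjusted p = 2.55e-09). The fitted log2 change of -6.56 ± 0.43 became -9.99 or -5.64 without replicate 1 or replicate 2 of day 4. In 3T3-L1 it had 9 and 12 counts at day 0 against 4 and 1 at day 6 and was not tested. Its relative Itga4 had no count at day 0 and 4 and 4 counts at day 4 in BAC, and at most 2 counts in a 3T3-L1 library.

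Of the alpha chains known from leukocytes, Itgae and Itgad were expressed in these cultures and Itgal was at the limit. Itgae, which pairs with the beta chain Itgb7 on T cells of the gut lining, had 20 and 8 counts at day 0 against 58 and 61 at day 4 in BAC, and 5 and 3 counts at day 0 against 97 and 94 at day 6 in 3T3-L1. It rose in both lines, by 2.49 ± 0.32 and 4.82 ± 0.30 (adjusted p = 4.19e-06 and 1.07e-11), and without replicate 1 of BAC at day 0 the BAC value was 3.26. Itgb7 had at most 8 counts in any library. The annotated span of Itgae holds the kinase gene Haspin (listed as Gsg2) on the opposite strand, with 0 shared exon bases. Gsg2 had 169 and 168 counts at day 0 against 208 and 197 at day 4 in BAC, and 20 and 23 counts at day 0 against 44 and 42 at day 6 in 3T3-L1.

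Itgad, a chain of macrophages, fell in BAC and rose in 3T3-L1. It had 26 and 24 counts at day 0 against 3 and 2 at day 4 in BAC, a log2 change of -2.86 ± 0.48 (adjusted p = 6.96e-05). The 3T3-L1 libraries had 0 and 3 counts at day 0 against 83 and 64 at day 6, a ratio of 60 with an exact 95% interval of 20.1 to 294 (counting error only, edgeR adjusted p = 3.38e-10). The fitted log2 change of 5.78 ± 0.45 became 4.85 or 9.30 without replicate 2 or replicate 3 of day 0. The days did not overlap in either line. Itgad lies in a cluster with its close relatives Itgam and Itgax, and reads could be split among them. Itgam had at most 1 count and Itgax at most 1 count in any library, and the part of split reads was not tested. Of the exon bases of Itgam, 68.7% are shared with Gm49368 on the same strand. The part of that gene in the low count of Itgam was not tested. Itgad also shares 388 exon bases with 4931431B13Rik, 102 with Gm39091 and 70 with Cox6a2, all on the opposite strand, and 330 with the pseudogene Gm17831 on its own strand, and whether the counting used strand is not stated. In BAC, 4931431B13Rik had 6 and 10 counts at day 0 and Gm39091 had 3 and 1, and both had none at day 4, while their part in the result for Itgad was not tested. Cox6a2 had 5 and 8 counts at day 0 against 85 and 77 at day 4 in BAC. In 3T3-L1 Cox6a2 had 3 and 6 counts at day 0 against 12 and 8 at day 6, and its part in the result for Itgad was not tested. Itgal, the lymphocyte chain, had 17 and 21 counts at day 0 against 20 and 10 at day 6 in 3T3-L1 (log2 change -0.05 ± 0.37, adjusted p = 0.907) and at most 5 counts in a BAC library. Of 6 immune cell markers, the defining genes Ptprc, Adgre1 and Cd3e were at 0 counts in all 8 libraries. Cd68 rose in BAC, from 41 and 41 counts to 64 and 49 (log2 change 0.87 ± 0.23), and did not pass in 3T3-L1. In 3T3-L1, Lyz2 fell from 67 and 45 counts to 13 and 7, and Csf1r from 21 and 14 to 2 and 4. The whole list summed to 4.87 to 4.89 CPM at day 0 against 6.17 to 7.65 CPM at day 4 in BAC, and to 7.30 to 9.75 CPM at day 0 against 2.90 to 3.37 CPM at day 6 in 3T3-L1.

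The main laminin alpha chain, Lama4, was joined by a rise of Lama5 in BAC, and neither passed the test in 3T3-L1. Lama4 (chromosome 10, 38965515 to 39110188), the alpha chain of fat, muscle and vessel laminins, had 133 and 148 CPM at day 0 against 302 and 316 CPM at day 4 in BAC. For 3T3-L1 the values were 599 and 576 CPM at day 0 against 559 and 558 CPM at day 6. BAC rose without overlap, by 1.13 ± 0.08 (adjusted p = 5.57e-09), while the 3T3-L1 value of -0.07 ± 0.05 did not pass (adjusted p = 0.182). The 3T3-L1 value passed as a fall with library size alone (-0.36) or upper-quartile factors (-0.23). Lama5, the widely expressed epithelial and vascular chain, had 15.5 and 19.4 CPM at day 0 against 36.0 and 43.4 CPM at day 4 in BAC, a log2 change of 1.19 ± 0.13 (adjusted p = 9.61e-07). In 3T3-L1 there were 15 and 32 counts at day 0 against 7 and 15 at day 6, so the days overlapped, and the value of -0.80 ± 0.42 did not pass (adjusted p = 0.0913), although it did, at -1.24, without replicate 2 of day 0, and with library size alone (-1.08) or upper-quartile factors (-0.95). It was -0.16 without replicate 3 of day 0 and -1.44 without replicate 2 of day 6. Lama2, the chain of muscle basement membrane whose loss causes muscular dystrophy, had 214 and 279 counts at day 0 against 17 and 25 at day 4 in BAC, a log2 change of -3.13 ± 0.23 (adjusted p = 7.43e-09). The 3T3-L1 values were 29 and 28 counts at day 0 against 19 and 19 at day 6, and the value of -0.29 ± 0.29 did not pass (adjusted p = 0.365).

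Among the laminin beta chains, Lamb3 appeared, Lamb2 fell and Lamb1 moved little. Lamb3 (chromosome 1, 193207699 to 193343878) encodes the beta chain of the epidermal laminin that anchors skin to its basement membrane. It had 1 and 1 count at day 0 and 444 and 361 counts at day 4 in BAC, a ratio of 536 with an exact 95% interval of 148 to 4430 (counting error only, edgeR adjusted p = 9.96e-13). In 3T3-L1 it had 7 and 6 counts at day 0 against 220 and 224 at day 6, a log2 change of 5.36 ± 0.22 (adjusted p = 6.42e-15). Lamb3 was thus all but absent at day 0 in both lines and was plainly read in all 4 late libraries.

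The annotated span of Lamb3 holds G0s2 and Hsd11b1, genes of lipolysis and of glucocorticoid activation, on the opposite strand, with 0 shared exon bases. Both rose too, G0s2 by 6.58 ± 0.13 in BAC and 10.13 ± 0.15 in 3T3-L1 and Hsd11b1 by 6.19 ± 0.22 and 8.07 ± 0.11, and their part in the rise of Lamb3 was not tested. The 5 epithelial markers examined summed to 0.0901 to 0.452 CPM at day 0 against 0.242 to 0.359 CPM at day 4 in BAC, and to 0 to 0.284 CPM at day 0 against 1.85 to 2.91 CPM at day 6 in 3T3-L1. The defining marker Epcam had at most 2 counts in a BAC library and none in 3T3-L1, and Krt18 alone passed the filter, in 3T3-L1. Their part in the rise of Lamb3 in 3T3-L1 was not tested.

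Lamb2, the beta chain of the neuromuscular junction and the kidney filter, had 238 and 267 CPM at day 0 against 117 and 113 CPM at day 4 in BAC, and 415 and 425 CPM at day 0 against 124 and 126 CPM at day 6 in 3T3-L1. It fell without overlap in both lines, by 1.14 ± 0.08 and 1.75 ± 0.05 on the log2 scale (adjusted p = 6.99e-09 and 4.09e-17). Lamb1, the common beta chain, had 464 and 470 CPM at day 0 against 349 and 347 CPM at day 4 in BAC, a log2 change of -0.42 ± 0.07 (adjusted p = 9.26e-05). The 3T3-L1 libraries had 451 and 455 CPM at day 0 against 566 and 562 CPM at day 6, a log2 change of 0.32 ± 0.05 (adjusted p = 6.49e-06). The rise in 3T3-L1 depended on the scaling. Scaling by library size alone moved the median of all genes to -0.29, and Lamb1 then read 0.025 and did not pass.

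Lamc1, the gamma chain of nearly all laminins, followed Lamb1. It had 566 and 612 CPM at day 0 against 418 and 450 CPM at day 4 in BAC (log2 change -0.44 ± 0.08, adjusted p = 1.35e-04). For 3T3-L1 the values were 438 and 451 CPM at day 0 against 494 and 522 CPM at day 6 (log2 change 0.19 ± 0.05, adjusted p = 0.00178), a small rise that turned to -0.0981 with library size alone and did not pass without replicate 2 of day 6, at 0.16. Lama3, an alpha chain found in laminins of the skin, had at most 6 counts in any library and none at the late day of either line. Lama1 had at most 5 counts and Lamc3 at most 3.

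**Figure D2:**
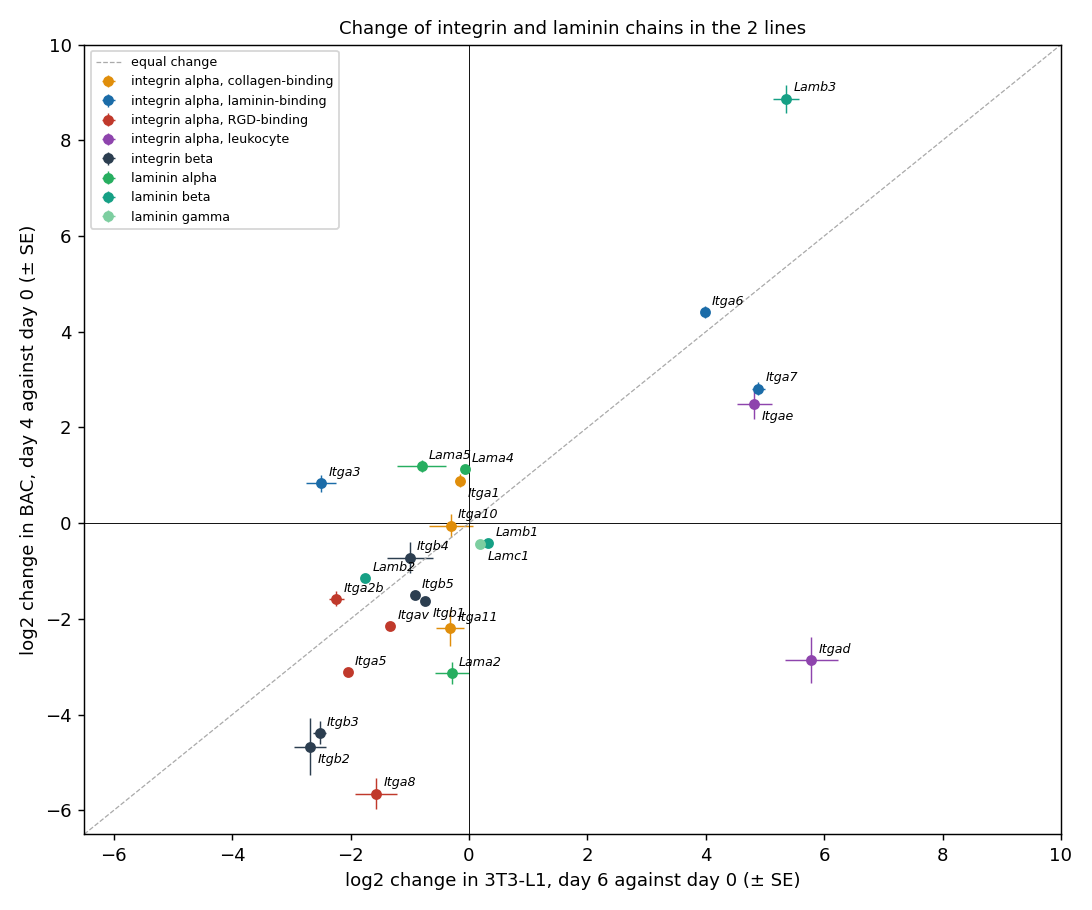
Log2 change of each chain tested in both lines, with 3T3-L1 on the horizontal and BAC on the vertical axis, bars giving ± SE, and colours marking the role of the chain. Itga6 (4.41 in BAC and 3.98 in 3T3-L1) lies at the upper right, below Lamb3, whose fitted BAC value rests on 2 counts at day 0, the RGD-binding alpha chains and the beta chains at the lower left, and Itga3 and Itgad in opposite corners.

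To compare chains with each other, CPM were divided by the coding length of each gene in kilobases, and each chain was expressed as a percentage of its pool. In the integrin alpha pool, Itga6 rose from 1.03% ± 0.0173 to 41.7% ± 2.26 in BAC and from 9.69% ± 0.261 to 74.8% ± 0.177 in 3T3-L1 (SD, n = 2). Itga5 went from 56.4% ± 1.85 to 12.4% ± 1.34 in BAC and from 36.5% ± 0.622 to 4.31% ± 0.144 in 3T3-L1. Itgav went from 25.0% ± 1.46 to 10.7% ± 0.619 and from 38.1% ± 0.583 to 7.40% ± 0.0709. The leading alpha chain per length was thus a fibronectin or vitronectin receptor chain at day 0 and Itga6 at the late day, with differences far beyond the spread of replicates. Itga7 ranked second at the late day in each line by coding length, at 13.2% ± 0.536 in BAC, which did not differ from the 12.4% ± 1.34 of Itga5 beyond their spread, and at 7.82% ± 0.0211 in 3T3-L1, just above the 7.40% of Itgav. These shares depend on the length used. With the length of all exons, Itga5 stood at 19.2% and Itga7 at 13.5% at day 4 of BAC, so that Itga7 came after Itga5 there. Itgav then stood at 14.0% and 24.9% at day 0 of BAC and 3T3-L1, below Itga5 at 69.5% and 52.4%, and Itga5 at 7.28% at day 6 of 3T3-L1.

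The partner pool did not shift in the same way. Itgb1 made up 80.5% ± 1.08 and 81.0% ± 1.67 of the beta pool in BAC at day 0 and day 4, a difference within the spread, and 81.0% ± 0.0891 and 84.9% ± 0.627 in 3T3-L1. The whole alpha pool went from 153 to 80.4 CPM per kb in BAC and from 178 to 364 CPM per kb in 3T3-L1, whereas the beta pool went from 331 to 106 and from 584 to 333 CPM per kb. The alpha pool was thus below the beta pool in 3 groups and above it at day 6 of 3T3-L1, an order that turned with the length used. By the length of all exons it was below in all 4 groups, at 138 against 199 CPM per kb at day 6 of 3T3-L1.

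The laminin alpha pool had 1 dominant chain. Lama4 made up 86.6% ± 1.11 and 93.7% ± 0.659 of the laminin alpha pool in BAC, and 99.5% ± 0.0835 and 99.7% ± 0.0673 in 3T3-L1. The laminin beta pool was mixed. Lamb1 made up 64.5% ± 1.68 and 64.4% ± 1.5 of it in BAC and 51.3% ± 0.241 and 77.0% ± 0.29 in 3T3-L1, where the length of all exons puts it below Lamb2 at day 0 (39.8% and 60.1%), while Lamb3 went from 0.0196% to 14.0% ± 1.55 in BAC and from 0.11% to 5.53% ± 0.0931 in 3T3-L1. The total of the laminin alpha pool was 29.9 and 60.5 CPM per kb in BAC and 108 and 103 CPM per kb in 3T3-L1.

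**Figure D3:**
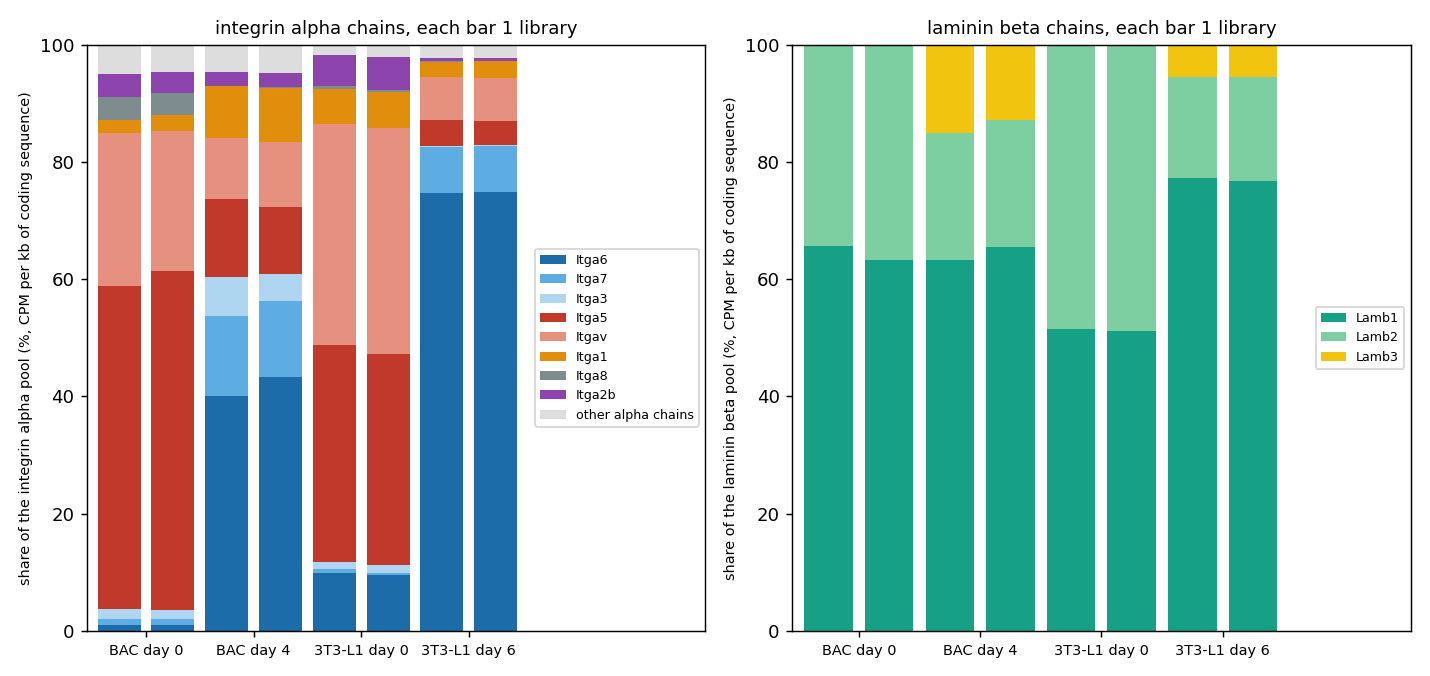
Share of each chain in the integrin alpha pool (left) and the laminin beta pool (right), in percent of CPM per kilobase of coding sequence, with 1 bar per library and 2 bars per group. Itga6 makes up 41.7% of the alpha pool at day 4 of BAC and 74.8% at day 6 of 3T3-L1, and Lamb3 reaches 14.0% and 5.53% of the laminin beta pool there.

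The change was then compared between the lines in 1 fit over the 8 libraries, as the change in BAC minus the change in 3T3-L1. Line, table and day of collection differ together and cannot be told apart, so levels were not tested between lines. Of 26 genes tested, 8 were past the test with a higher value in BAC and 15 with a lower value, that is 30.8% and 57.7%, where 25.3% of all 12863 genes were higher and 33.7% lower. The median difference was -0.81 on the log2 scale, against -0.113 over all genes. All 4 of the tested beta chains that fell in both lines fell further in BAC, Itgb1 by 0.91 ± 0.09 and Itgb5 by 0.61 ± 0.10 on the log2 scale (adjusted p = 9.11e-09 and 8.17e-06), Itgb3 by 1.89 ± 0.33, and Itgb2 by 2.01 ± 0.87 with an adjusted p of 0.0494. The call for Itgb2 was lost in most alternatives, in DESeq2 among them, and the value without replicate 1 or replicate 2 of BAC at day 4 was -5.33 or -1.09.

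Of the RGD-binding alpha chains, Itga5, Itgav and Itga8 fell further in BAC, with differences of -1.09 ± 0.11, -0.85 ± 0.11 and -4.10 ± 0.68 (adjusted p = 5.96e-09, 3.13e-07 and 1.28e-05). The value for Itga8 was -3.38 or -5.59 without replicate 1 or replicate 2 of BAC at day 4. Itga2b fell further in 3T3-L1, with a difference of 0.63 ± 0.23 (adjusted p = 0.0192), a call that was lost in DESeq2 (0.70) and without replicate 2 of BAC at day 4 (0.61) or of 3T3-L1 at day 6 (0.56). The laminin-binding chains split. Itga7 rose further in 3T3-L1 (-2.11 ± 0.22, adjusted p = 1.36e-08), Itga3 differed by 3.30 ± 0.34 (adjusted p = 8.08e-09), and Itga6 differed little, by 0.40 ± 0.15 (adjusted p = 0.0252), a call that was lost without replicate 2 of BAC at day 4 (0.32), replicate 2 of 3T3-L1 at day 0 (0.38) or replicate 1 of 3T3-L1 at day 6 (0.39).

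Among the laminins, Lama4 and Lama5 changed more in the upward direction in BAC, by 1.18 ± 0.09 and 1.96 ± 0.46, and Lamb3 by 3.48 ± 0.82 (adjusted p = 9.08e-11, 7.09e-04 and 7.32e-04). The Lama5 call was lost without replicate 3 of 3T3-L1 at day 0 (1.31), and its value was 2.60 without replicate 2 of 3T3-L1 at day 6. Lamb1 and Lamc1 differed by -0.77 ± 0.09 and -0.66 ± 0.09 (adjusted p = 3.54e-08 and 1.38e-06), and both had changed in opposite directions. Their rises in 3T3-L1 depended on the scaling, at 0.025 and -0.0981 with library size alone. Lama2 differed by -2.87 ± 0.42 (adjusted p = 2.64e-06). Itgb4, Itga10 and Itgal did not pass, at 0.25 ± 0.55, 0.23 ± 0.45 and -0.93 ± 1.0.

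**Figure D4:**
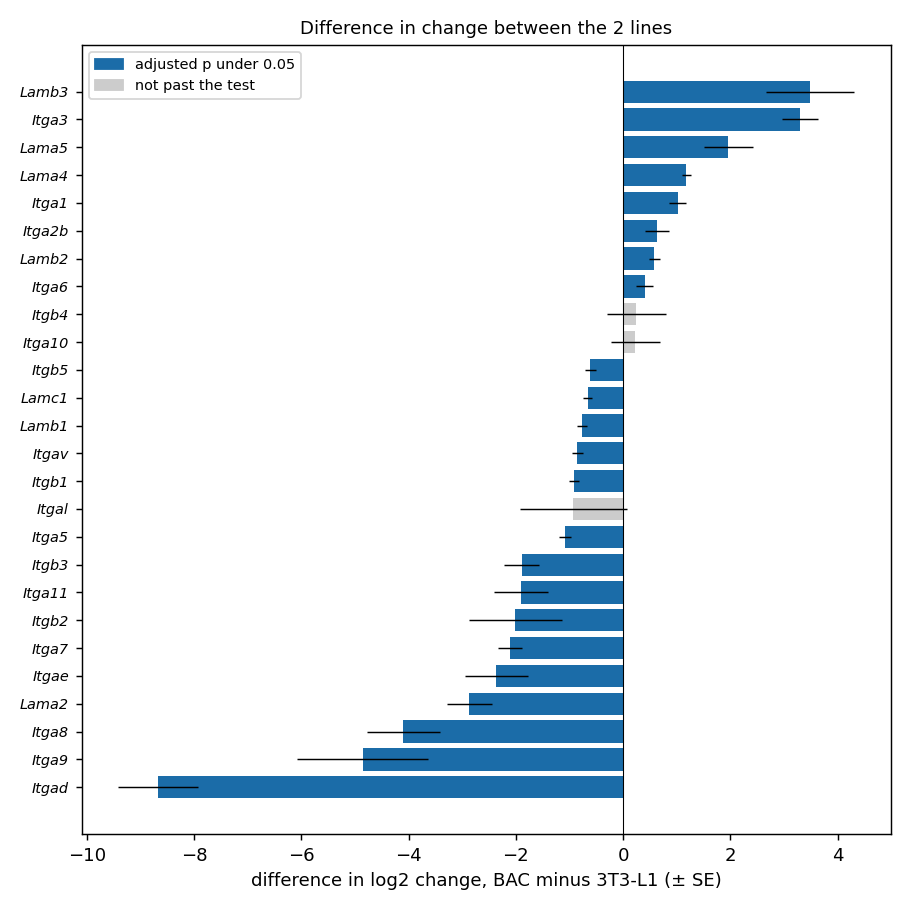
Difference in log2 change, BAC minus 3T3-L1, for each of the 26 chains tested over the 8 libraries, with bars giving the value and lines ± SE. Blue bars passed an adjusted p of 0.05 and grey bars did not. Itgad lies lowest at -8.67 and Lamb3 highest at 3.48, each resting on 3 or fewer counts at day 0 of a line.

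Genes that work with integrins and laminins were examined as lists, whose counts are to be read against the 39.1% of all genes that rose and 39.4% that fell in BAC and the 39.8% and 39.6% in 3T3-L1. Among ligands of integrins other than laminins and collagens, 18 of 20 tested fell and 1 rose in BAC, and 16 of 20 fell and 3 rose in 3T3-L1, with medians of -4.22 and -1.65 (-4.08 in BAC with the 2 genes that reached 0 counts, Nov and Edil3, at their lower bound). Fibronectin (Fn1) had 32978 and 38480 counts at day 0 against 1942 and 1948 at day 4 in BAC, and 39513 and 42088 at day 0 and 13037 and 14014 at day 6 in 3T3-L1. Tenascin C (Tnc) fell by 7.64 ± 0.17 in BAC and 2.38 ± 0.12 in 3T3-L1 on the log2 scale, and Edil3, a ligand of the vitronectin receptors, fell by 4.02 ± 0.14 in 3T3-L1 and from 13 and 20 counts to 0 in BAC, at least 8.26-fold lower against 3 counts over the group. Nov, a matricellular protein, went from 589 and 555 counts to 0 in BAC, at least 286-fold lower, and fell by 2.29 ± 0.27 in 3T3-L1. Its relative Ctgf went from 235 and 249 counts to 0 and 4 in BAC and fell by 3.12 ± 0.44 in 3T3-L1. Nephronectin (Npnt), a basement membrane ligand of Itga8, was the 1 ligand that rose in both lines, and rose by 0.36 ± 0.11 in BAC and 3.52 ± 0.12 in 3T3-L1.

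The basement membrane partners of laminins went apart between the lines. In BAC, 16 of 17 tested fell and 1 rose, with a median of -2.15, while in 3T3-L1 7 of 15 rose and 7 fell, 46.7% each way, with a median of 0.07. Nidogen (Nid1), which links laminin to collagen IV, had 13145 and 13432 counts at day 0 against 1464 and 1640 at day 4 in BAC. In 3T3-L1 it had 10482 and 10377 counts at day 0 and 10863 and 11063 at day 6. The collagen IV chain Col4a1 fell by 1.18 ± 0.08 in BAC and rose by 1.13 ± 0.05 in 3T3-L1. Col15a1, a basement membrane collagen, fell by 1.97 ± 0.08 in BAC and rose by 4.69 ± 0.07 in 3T3-L1. Smoc1, a calcium-binding basement membrane protein, rose in both (2.14 ± 0.16 and 4.37 ± 0.14), and its relative Smoc2 fell in both, from 526 and 528 counts to 0 and 1 in BAC (ratio 792, exact 95% interval 142 to 31300) and by 2.40 ± 0.60 on the log2 scale in 3T3-L1. Nid2, the other nidogen, fell by 4.56 ± 0.09 in BAC and 0.37 ± 0.06 in 3T3-L1. Frem1 went from 72 and 81 counts to 1 and 1 in BAC (ratio 57.5, interval 15.6 to 479) and was at 0 in 3T3-L1. Egflam, a ligand of dystroglycan, went from 3 and 0 counts to 11 and 15 in 3T3-L1 (ratio 10.6, interval 3.25 to 54.8). It had at most 2 counts in a BAC library. The difference in change of these partners was not tested as a list.

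Inside the cell, 15 of 22 focal adhesion adaptors fell and 5 rose in BAC, and 16 of 21 fell and 4 rose in 3T3-L1. Talin (Tln1), which switches integrins on, fell by 1.80 ± 0.09 and 1.16 ± 0.05 on the log2 scale, and Tgfb1i1, a paxillin relative, by 5.75 ± 0.14 and 2.88 ± 0.08. Fblim1, which binds filamin and kindlin, fell by 3.71 ± 0.13 in BAC and 2.79 ± 0.16 in 3T3-L1, and Tns3, a tensin, by 3.55 ± 0.12 and 2.52 ± 0.06. Fermt2, the kindlin of mesenchymal cells, rose by 0.60 ± 0.08 and 0.52 ± 0.06. Parvg, the parvin of blood cells, went from 2 and 1 counts to 213 and 194 counts in BAC (ratio 181, exact 95% interval 61.4 to 880). In 3T3-L1 it had 3 and 2 counts at day 0 against 7 and 5 at day 6 and was not tested. Lims2, a partner of integrin-linked kinase, rose by 0.86 ± 0.32 in BAC and 1.52 ± 0.20 in 3T3-L1. Of 21 signalling kinases and regulators, 12 fell and 3 rose in BAC, and 12 fell and 7 rose in 3T3-L1, where the 33.3% that rose lay near the 39.8% of all genes. Apbb1ip, which brings talin to integrins, fell by 3.60 ± 0.13 in BAC and 2.70 ± 0.11 in 3T3-L1. Src fell by 2.60 ± 0.13 and 1.63 ± 0.08 and Fyn by 2.52 ± 0.12 and 2.23 ± 0.08, whereas Ptk2b, a relative of focal adhesion kinase, rose by 2.10 ± 0.20 and 0.69 ± 0.07.

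Most other receptors for laminin and matrix fell, 11 of 16 in BAC and 12 of 15 in 3T3-L1, with 5 and 3 rises. The hyaluronan receptor Cd44 fell by 4.63 ± 0.13 and 2.69 ± 0.08 on the log2 scale, the syndecan Sdc3 fell by 4.73 ± 0.11 and 2.03 ± 0.07, and the collagen receptor Ddr2 fell by 1.74 ± 0.06 in 3T3-L1. Ddr2 fell in BAC too, with a log2 change of -2.8 ± 0.09. Dystroglycan (Dag1), a laminin receptor outside the integrin family, rose by 0.35 ± 0.08 in BAC and 1.36 ± 0.05 in 3T3-L1. Dystrophin (Dmd) rose by 3.59 ± 0.34 in BAC and fell by 0.39 ± 0.13 in 3T3-L1. Of the membrane proteins that sit beside integrins, 4 of 10 rose and 5 fell in BAC and 4 of 11 rose and 6 fell in 3T3-L1. The shares that rose, 40% and 36.4%, lay near those of all genes, and 50% and 54.5% fell. Those that rose in both included basigin (Bsg, 3.03 ± 0.09 and 2.96 ± 0.06), caveolin (Cav1, 2.27 ± 0.08 and 2.48 ± 0.05) and Cd151, the tetraspanin of laminin-binding integrins (1.33 ± 0.09 and 1.70 ± 0.06). Plaur, the urokinase receptor, went from 64 and 61 counts to 1 and 2 in BAC (ratio 31.3, exact 95% interval 10.5 to 154). In 3T3-L1 it fell by 2.43 ± 0.27. Itgbl1, an integrin beta-like protein, fell by 2.65 ± 0.08 in 3T3-L1 and had at most 4 counts in a BAC library.

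The remaining genes were too scarce to test. Itga2, Itga4, Itgam, Itgax, Itgb6, Itgb7, Itgb8, Lama1, Lama3 and Lamc3 were tested in neither line. Itgb6 was at 0 counts in all 8 libraries, and Itgax was at 0 in BAC, where 0 counts allow up to 3 over a group. Itgb8, the beta chain that activates latent TGF-beta with Itgav, had 4 and 5 counts at day 0 in BAC and 6 and 5 in 3T3-L1, and none at the late day of either line. Other tested chains that share exon bases with an overlapping gene are Itgb4 (7.66% of its exon bases), Itgav (5.9%), Itga8 (5.05%), Lama2 (3.86%), Itga1 (3.68%) and Itga7 (0.111%), and the part of those genes in their values was not tested.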

How the data were processed

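The authors deposited raw read counts per gene, 1 table per line, not normalized. STAR and HTSeq are named in the study's methods, but DESeq2 1.4.5, RSEM 1.3.1, Bowtie2 and mm10 in the processing notes of the submitters. No source used here gives strand use. Of the BAC rows, 27 had names turned into dates, held at most 0.316% of a library's counts and were left out.

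Counts were tested per line in edgeR 4.0.16 (R 4.3.3) by its quasi-likelihood test, two-sided, with TMM factors, filterByExpr (minimum count 10) and Benjamini-Hochberg adjustment at 0.05. The difference between lines was 1 contrast over 8 libraries on the 21828 shared genes. Code was tested on simulated data. Between replicates the chi-square per gene was 1.87 to 5.17, above counting noise. A group with 1 to 3 counts was given as an exact 95% ratio. Intervals cover counting error only.

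Positions and coding lengths came from GENCODE M21, upstream sequences from RefSeq. Alternatives were other scalings, DESeq2 1.42.0, no filter, genes of both tables, a replicate block and leaving out each library. Length of all exons was added after seeing the data. Members and lists were chosen with earlier results of these data known. Of 37 matching genes, 1 is not reported here, nor is 1 marker gene, and both stayed in the fits over all genes. The other members are named with their values, untested ones with counts. From each list, up to 3 of the largest changes and the largest against the majority were named by rule. Fn1, Nid1, Col4a1, Tln1, Fermt2, Cd151, and Dmd in 3T3-L1 were added after their values were seen. The BAC values of Ctgf, Ddr2, Tns3, Lims2, Itgbl1, Egflam, Col15a1 and Dag1 were added likewise. So were the 3T3-L1 values of Nov, Tnc, Plaur, Nid2, Frem1 and Parvg, and the markers Ucp1, Cd68, Lyz2 and Csf1r.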

Additional observations from a re-analysis of the deposited data

Results flagged for a closer look

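The lines differed in their change, by the test of the difference in edgeR over the 8 libraries, for 23 of 26 integrin and laminin genes. Over all 12863 genes tested, 25.3% were higher in BAC and 33.7% lower. Differences are log2 values, BAC minus 3T3-L1. The higher values in BAC were 3.48 for Lamb3, 3.30 for Itga3, 1.96 for Lama5, 1.18 for Lama4, 1.02 for Itga1, 0.63 for Itga2b, 0.58 for Lamb2 and 0.40 for Itga6. The calls for Itga2b and Itga6 were lost without certain single libraries, and that for Itga2b also in DESeq2 (0.70). With each library left out in turn, Itga2b ranged from 0.56 to 0.84 and Itga6 from 0.32 to 0.56. The lower values among laminins were -2.87 for Lama2, -0.77 for Lamb1 and -0.66 for Lamc1. Among integrin alpha chains they were -8.67 for Itgad, -4.85 for Itga9, -4.10 for Itga8, -2.36 for Itgae, -2.11 for Itga7, -1.90 for Itga11, -1.09 for Itga5 and -0.85 for Itgav, and among beta chains -2.01 for Itgb2, -1.89 for Itgb3, -0.91 for Itgb1 and -0.61 for Itgb5. Itga3, Itgad, Lamb1 and Lamc1 had passed in opposite directions in the 2 lines, Itgad with 3 counts at day 0 of 3T3-L1. The 3T3-L1 rises of Lamb1 and Lamc1 did not pass with library size alone. The values for Lamb3 and Itgb2 rest on 2 counts in BAC at day 0 and day 4. The value for Itga9 rests on 2 counts in BAC at day 4 and on 21 and 5 counts in the 3T3-L1 groups, and it was -3.62 and not past the test without replicate 1 of 3T3-L1 at day 6. Without replicate 1 or replicate 2 of BAC at day 4, the difference was -8.17 or -3.93 for Itga9, -3.38 or -5.59 for Itga8 and -5.33 or -1.09 for Itgb2. Without replicate 2 or replicate 3 of 3T3-L1 at day 0 it was -7.73 or -12.29 for Itgad, and without replicate 3 it was 1.31 for Lama5. The value for Itgae was -1.43 and not past the test without replicate 1 of BAC at day 0.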

How the results depend on the processing

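Counts of rises and falls among integrins and laminins stayed within 1.5 times under every alternative run. With library size alone, which moved the median log2 change of all genes to -0.26 in BAC and -0.29 in 3T3-L1, 8 rose and 16 fell in BAC, and 5 rose and 15 fell in 3T3-L1, while over all genes 4298 rose and 6795 fell in BAC and 3424 rose and 6306 fell in 3T3-L1. Upper-quartile factors moved the 3T3-L1 median to -0.16, where 6 members rose and 14 fell, while over all genes 4003 rose and 5565 fell. Under these scalings Lama4 (-0.36 and -0.23), Itga1 (-0.44 and -0.31) and Lama5 (-1.08 and -0.95) fell in 3T3-L1, Itgb4 (-0.98 and -0.76) fell in BAC, Itga11 fell in 3T3-L1 with library size alone (-0.61), and Lamc1 read -0.0981 and 0.0324, neither past the test. Of 275 gene values in BAC, 272 kept their direction and side of the threshold, of 225 in 3T3-L1 203 did, and of 338 for the difference 316 did. Leaving out single libraries turned the direction only of genes that had not passed, from -0.25 to 0.13 for Itga10 in BAC, from -0.58 to 0.0243 for Itga10, from -0.86 to 0.0817 for Itga11 and from -0.62 to 0.36 for Itgal in 3T3-L1, and from -0.11 to 0.50 for the difference of Itga10. Values resting on a few counts moved most. Without replicate 1 or replicate 2 of BAC at day 4, Itga9 was -9.99 or -5.64 and Itgb2 -8.11 or -3.75. Without replicate 2 or replicate 3 of 3T3-L1 at day 0, Itgad was 4.85 or 9.30. Dividing by the length of all exons, an alternative added after seeing the data, gave Lamb1 53.2% and 57.3% of its pool in BAC and 39.8% and 69.9% in 3T3-L1, which puts it below Lamb2 at day 0 of 3T3-L1, and gave Itga6 0.715% and 36.5% in BAC and 7.88% and 71.5% in 3T3-L1. It also moved Itgav to 14.0% and 24.9% at day 0 and Itga5 to 19.2% and 7.28% at the late day of BAC and 3T3-L1, and put the integrin alpha pool below the beta pool at day 6 of 3T3-L1 (138 against 199 CPM per kb). The replicate numbers did not pair the BAC libraries (correlation 0.026 over 14028 genes), and with a replicate block 8 members rose and 15 fell, with 5528 rises and 5571 falls over all genes. In 3T3-L1 the groups share fewer than 2 replicate numbers, so no block could be fitted. With 2 libraries per group and about 10 counts as the minimum, small changes of scarce chains were not detectable at this depth.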
